A study of Mus musculus with 8 samples.

Results

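Chromatin accessibility was examined at 9 genes of the neural progenitor and proneural programme, Nes, Neurog1, Neurog2, Neurod1, Olig2, Olig3, Hes1, Hes5 and Hey1, in the mouse line SN4741. They were chosen by name and are 9 of the 21938 protein-coding genes annotated. ATAC-seq, which reads open chromatin from the places where a transposase can insert sequencing adapters, gave 8 peak lists, one for each library. The 4 libraries labelled 37C came from cells in 10% serum at 37 °C, the permissive temperature. The 4 libraries labelled 39C came from cells that were moved to 39 °C, the non-permissive temperature, and to 0.5% serum for 48 h. The labels give all 8 libraries the genotype WT and the cell type of neural precursor cells, and each was made from an aliquot of 50000 cells with 12 cycles of amplification. Temperature and serum changed together, so their parts in a difference cannot be told apart.

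SN4741 is a clonal line from the substantia nigra of a mouse embryo, immortalised by a T antigen that is active at the lower temperature and driven by a tyrosine hydroxylase promoter, and the study describes it as polyploid and karyotypically unstable. Nothing in the labels says that the 4 replicates of a temperature came from separate cultures, so the p-values below measure only the spread between these libraries. The caller kept 158 to 169 M fragments (M for mega) in replicates 1 and 4 at 37 °C and 49.8 to 71.2 M in the other libraries. The lists held 74026 to 92013 peaks at 37 °C and 54845 to 68410 at 39 °C. Of the lists of marker genes, all 4 astrocyte promoters, 4 of 6 for neural progenitors, 4 of 5 for neurons, 4 of 6 for mesenchymal cells, 2 of 4 for the oligodendrocyte lineage, 0 of 3 for endothelium and 0 of 4 for microglia carried a peak in every library, as did 59.9% of all coding genes. Among the progenitor markers, Sox2, Pax6, Msi1 and Vim were open in every library, and Prom1 and Fabp7 had no promoter peak in any. Of the endothelial and microglial markers, Pecam1, Aif1 and Csf1r were called in 4 libraries at 37 °C and 3 at 39 °C. Kdr was called in 4 and 0, and Cdh5, Cx3cr1 and Ptprc in none. RNA was not analysed here. In a bulk library, fewer cells with an open region and a less open region in each cell cannot be told apart.

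Nes encodes nestin, an intermediate filament protein of neural stem and progenitor cells. Hes1, Hes5 and Hey1 encode basic helix-loop-helix (bHLH) repressors that act downstream of Notch receptors: on ligand binding the receptor's intracellular domain joins the DNA-binding protein RBPJ, and the Hes and Hey proteins then hold back proneural genes, which keeps progenitors undifferentiated. Neurog1 and Neurog2 encode proneural bHLH activators that commit progenitors to a neuronal fate, and Neurod1 acts after them in neuronal differentiation. Olig2 and Olig3 encode bHLH factors that pattern the neural tube, and Olig2 is required for motor neurons and oligodendrocytes. In the ventral midbrain, Neurog2 is needed for the normal generation of dopaminergic neurons.

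A peak was assigned to a promoter when it overlapped the 1 kb on either side of an annotated start of the gene. The promoters fell into 3 groups. Nes, Neurog2, Hes1 and Hey1 were open in all 8 libraries, Neurod1, Olig2 and Olig3 in none, and Neurog1 and Hes5 only in libraries at 37 °C, at low rank. Promoter sequence upstream of the annotated starts is shown for the members that the reference table of RefSeq promoters holds (GRCm38.p6, the sequence of mm10), so that the members open everywhere, the members open nowhere and the 2 in between can be read side by side. Nes and Neurog2 come first, then Neurog1, then the promoters without a peak, and last Hes5; Neurog1 and Hes5 were added to this display after their values were seen. Capitals mark matches, on either strand, to motifs known for the pathway: the RBPJ site GTGGGAA, the Hes and Hey sites CACGTG and CACGCG, the N-box CACNAG, and the proneural E-boxes CAGATG and CAGCTG.
Nes, chr3:87970843-87971077, plus strand: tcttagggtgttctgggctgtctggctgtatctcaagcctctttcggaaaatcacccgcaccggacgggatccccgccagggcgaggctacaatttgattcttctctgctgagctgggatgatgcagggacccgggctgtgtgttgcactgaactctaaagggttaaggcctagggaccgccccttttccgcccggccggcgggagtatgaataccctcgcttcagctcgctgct
Neurog2, chr3:127632886-127633134, plus strand: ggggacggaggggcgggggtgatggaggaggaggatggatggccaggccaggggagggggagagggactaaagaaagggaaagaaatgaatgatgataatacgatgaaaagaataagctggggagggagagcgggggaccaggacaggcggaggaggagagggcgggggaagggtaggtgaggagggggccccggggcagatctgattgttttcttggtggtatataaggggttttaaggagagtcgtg
Neurog1, chr13:56252181-56252430, minus strand: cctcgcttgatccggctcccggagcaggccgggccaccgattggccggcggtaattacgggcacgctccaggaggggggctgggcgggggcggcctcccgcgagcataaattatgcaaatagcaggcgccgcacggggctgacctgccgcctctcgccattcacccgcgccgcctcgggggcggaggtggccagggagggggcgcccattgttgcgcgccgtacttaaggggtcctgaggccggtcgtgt
Neurod1, chr2:79456752-79456886, minus strand: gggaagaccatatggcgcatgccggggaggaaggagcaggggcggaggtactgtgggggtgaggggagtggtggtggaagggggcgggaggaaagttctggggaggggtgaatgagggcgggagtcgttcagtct
Olig2, chr16:91225300-91225456, plus strand: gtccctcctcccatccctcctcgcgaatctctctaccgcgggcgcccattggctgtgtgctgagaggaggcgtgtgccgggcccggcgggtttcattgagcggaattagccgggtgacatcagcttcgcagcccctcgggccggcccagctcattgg
Olig3, chr10:19356289-19356532, plus strand: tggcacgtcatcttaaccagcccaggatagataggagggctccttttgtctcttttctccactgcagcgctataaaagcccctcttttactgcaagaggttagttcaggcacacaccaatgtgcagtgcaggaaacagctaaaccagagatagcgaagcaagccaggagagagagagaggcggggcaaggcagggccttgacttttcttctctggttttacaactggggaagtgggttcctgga
Hes5, chr4:154960673-154960922, plus strand: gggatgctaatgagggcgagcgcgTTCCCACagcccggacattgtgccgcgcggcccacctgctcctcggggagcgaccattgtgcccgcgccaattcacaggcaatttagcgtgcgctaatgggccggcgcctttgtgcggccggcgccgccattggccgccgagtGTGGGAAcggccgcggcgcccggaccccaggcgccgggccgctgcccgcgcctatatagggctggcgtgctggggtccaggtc

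Motifs were searched in the whole windows of the table, 300 bases each (250 before the RefSeq start and 50 after), of which the printed sequences are the upstream part. The Hes5 window was the 1 of these 7 with RBPJ matches. It held 2, in opposite orientations, the first of them at position -226 from the RefSeq start. A match was present in 6.39% of the 32817 RefSeq promoter windows of 300 bases. The other motifs were found in 7.15% (CACGTG), 9.26% (CACGCG), 42.5% (CACNAG), 17.2% (CAGATG) and 16.3% (CAGCTG) of all promoters. Among the members' windows, Neurod1 held 1 CACGCG and 1 CACNAG, and Neurog2 held 1 CACNAG 22 bases after its start; these lie outside the stretches printed. GC content of the windows was 58.0% for Neurog2, 58.7% for Nes, 65.0% for Olig2, 66.7% for Neurod1, 69.3% for Neurog1 and 72.7% for Hes5, against a median of 52.7% over all promoters. Olig3 stood apart with 46.0% GC and an observed-to-expected CpG ratio of 0.252, below the median of 0.383. The 3 promoters without a peak therefore included 2 rich in GC and 1 poor in it.

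Nes (chr3:87971078-87980451, plus strand) carried a promoter peak in all 8 libraries. Peaks were ranked within each list by their −log10 q, and the rank was written as a percentile, with 100 for the highest peak. At 37 °C the Nes promoter peak stood at the percentiles 93.7, 91.8, 89.3 and 92.8 in replicates 1 to 4, and at 39 °C at 87.2, 84.2, 85.7 and 82.6. Every library at 39 °C lay below every library at 37 °C. The means were 91.9 ± 1.90 and 84.9 ± 1.94 (SD, n = 4 each), a difference of -6.97 points (two-sided exact permutation p = 0.0286, the lowest value that 4 against 4 libraries allow; 0.0540 after Benjamini-Hochberg adjustment over the 13145 genes with a promoter peak in all libraries). Promoter percentiles were lower at 39 °C without overlap in 52.4% of those genes and higher in 0.510%, with a median difference of -2.51 points. A percentile within the whole list depends on the length of that list, and the lists at 37 °C were longer. The rank was therefore also taken among the 44861 regions that all 8 libraries called.

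On that scale the background was more even, with 13.9% of genes lower at 39 °C without overlap, 8.44% higher and a median difference of -0.0357 points. The Nes promoter remained lower in every library at 39 °C, by -6.29 points (exact permutation p = 0.0286, adjusted p = 0.128). Its fold enrichment, the authors' ratio of pileup to background, ranged from 56.4 to 67.0 at 37 °C and from 31.2 to 59.0 at 39 °C. The peak was wide, 6183, 5674, 4890 and 5368 bp at 37 °C and 4907, 4961, 4747 and 4596 bp at 39 °C, and its mean width exceeded that of 92.1% of the promoters called in every library, while its mean rank exceeded that of 44.3% of them. These widths overlapped between temperatures (exact permutation p = 0.0857), but only through replicate 3 at 37 °C, the library with the fewest fragments. Without it the Nes, Neurog2 and Hey1 promoter peaks were all narrower at 39 °C with no overlap, by -939, -988 and -2006 bp. Without it, width was also lower at 39 °C without overlap in 49.1% of all genes tested and higher in 0.152%. With all 8 libraries these shares were 23.4% and 0.137%.

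The peak over the Nes promoter extended into the gene. The second intron of nestin, known to hold an enhancer active in neural progenitors, measures 1685 bp here (chr3:87973117-87974801). It was covered from end to end in the 4 libraries at 37 °C and in replicate 2 at 39 °C. In replicates 1, 3 and 4 at 39 °C the peaks covered 1652, 1652 and 1501 bp of it. The first intron (1003 bp) was covered whole in all 8 libraries.

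Hes1 (chr16:30064384-30067796, plus strand), the Notch target with the broadest promoter peak of the 9, went the other way. Its percentiles were 99.6, 99.5, 99.5 and 99.2 at 37 °C and 99.9, 99.8, 99.8 and 99.8 at 39 °C. All 4 libraries at 39 °C lay above the 4 at 37 °C, though by a small margin near the top of the scale. The difference was 0.388 points within the lists and 0.795 among shared regions (exact permutation p = 0.0286 for both; adjusted p = 0.0540 and 0.128). The mean rank of the peak exceeded that of 98.3% of the promoters called in every library, and its mean width that of 99.6%. It measured 15715, 9499, 14747 and 14833 bp at 37 °C and 16087, 15778, 15608 and 14791 bp at 39 °C, which covers the whole gene and several kb on both sides. In replicate 2 at 37 °C the caller had split it, and in replicate 4 at 39 °C a downstream piece of 506 bp was a peak of its own. These widths overlapped (exact permutation p = 0.171), and the fold enrichment, 113 to 142 at 37 °C and 110 to 201 at 39 °C, overlapped as well.

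Hey1 (chr3:8663359-8667256, minus strand), the Hey repressor of the set, showed no separation. Its promoter peak stood at the percentiles 97.6, 97.4, 98.1 and 97.6 at 37 °C and 98.1, 97.1, 97.9 and 97.2 at 39 °C. The groups overlapped fully (difference -0.0866 points, exact permutation p = 0.771). Among shared regions the difference had the opposite sign, 0.880 points, and the groups overlapped there too (exact permutation p = 0.143). The peak was 4231, 4234, 2325 and 4241 bp wide at 37 °C and 2380, 2176, 2349 and 2014 bp at 39 °C. Replicate 3 at 37 °C thus had the width seen at 39 °C. In that library and in the 4 at 39 °C, the part of the region towards the end of the gene was a peak of its own, 888 bp wide at 37 °C and 788 to 1062 bp at 39 °C. At 37 °C, replicates 1, 2 and 4 had 1 fused peak over both parts.

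Neurog2 (chr3:127633135-127635631, plus strand) was the proneural gene of the set with a promoter peak in every library. The mean rank of that peak exceeded that of 22.0% of the promoters called in every library, and its mean width that of 68.6%. Its percentiles were 83.1, 82.2, 82.2 and 84.3 at 37 °C and 77.8, 75.7, 76.8 and 73.5 at 39 °C. The groups did not overlap within the lists, with means of 82.9 ± 1.00 and 75.9 ± 1.85 (SD, n = 4 each) and a difference of -7.00 points (exact permutation p = 0.0286, adjusted p = 0.0540). They did overlap among shared regions, where the difference was -2.37 points (exact permutation p = 0.143). The summit lay 1093 bp inside the gene in 7 libraries and 907 bp inside in replicate 4 at 39 °C, whereas the summits of Hey1 and Hes1 lay before the nearest start. Fold enrichment was 31.9 to 35.5 at 37 °C and 20.0 to 33.6 at 39 °C.

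Neurog1 (chr13:56250478-56252163, minus strand) had a promoter peak in all 4 libraries at 37 °C and in 0 of 4 at 39 °C (Fisher's exact test, two-sided, p = 0.0286, adjusted p = 1.00 over all genes). It was 1 of 9 members with this pattern, against 1.46% of all coding genes, and 0.0137% of genes had the reverse. The peak was weak in each library. Its percentiles were 2.30, 8.75, 6.36 and 5.97, its fold enrichments 1.80, 2.62, 2.68 and 2.01, and its widths 353, 834, 1011 and 873 bp. All 4 were thus near the foot of lists that were longer at 37 °C, and none was left when only peaks of −log10 q of at least 5 or equal numbers of peaks per list were taken.

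Hes5 (chr4:154960923-154962371, plus strand), a Notch target with 2 RBPJ matches in the promoter shown above, had almost no peak at its start. Replicates 3 and 4 at 37 °C carried one, 612 and 466 bp after the nearest start, at the percentiles 12.3 and 2.73. The other 6 libraries had none. The summit of that region was nearer to a start of the gene Gm20421 (168 bp) than to one of Hes5, so the peak cannot be given to Hes5 alone. The large peak in every library 3.41 kb downstream lay over the start of the neighbouring gene Pank4, at 92.3 ± 0.453 and 93.1 ± 1.06 (SD, n = 4 each).

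Neurod1 (chr2:79452521-79456751, minus strand), Olig2 (chr16:91225457-91228677, plus strand) and Olig3 (chr10:19356533-19358604, plus strand) had no promoter peak in any of the 8 lists. Of all coding genes, 31.3% had none in any library and 59.9% had one in every library. A peak is called only above a threshold, so a lower level of accessibility at these starts cannot be told from none. Within the Neurod1 gene body, 2.39 kb from its start, a peak over an exon (chr2:79454076-79454591) was called in all 4 libraries at 37 °C, at the percentiles 29.6, 27.0, 31.7 and 37.9. At 39 °C replicate 3 alone had it, at 5.30. That region is also within 1 kb of a start of the transcript Gm26755, so the peak cannot be given to either alone.

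**Figure D1:**
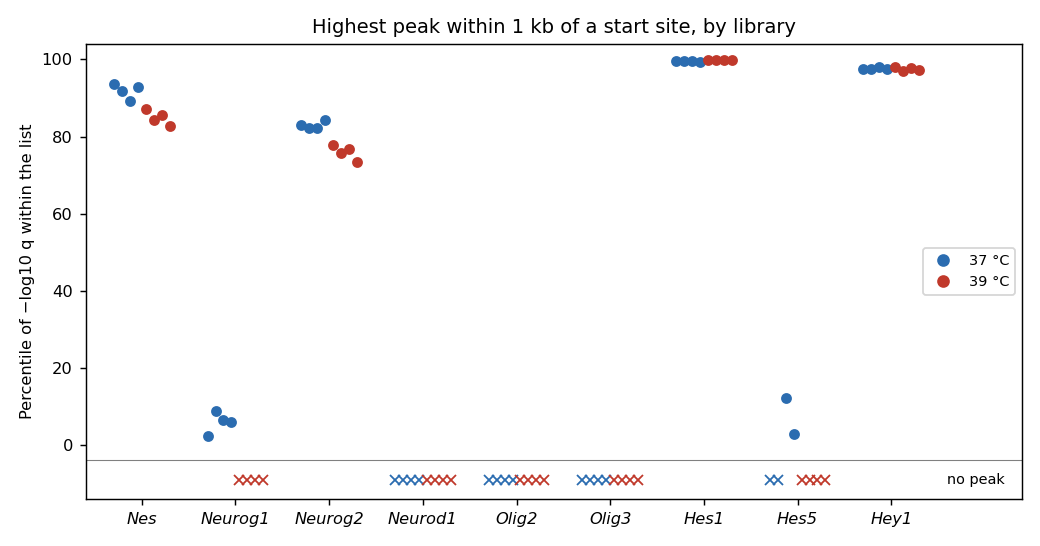
Percentile of −log10 q of the highest promoter peak within its own list (vertical axis, 100 = highest) for the 9 genes, with 1 point per library, replicates 1 to 4 from left to right within each temperature, and crosses for libraries without a promoter peak. Nes and Neurog2 lie lower in the 4 libraries at 39 °C, Hes1 and Hey1 lie between 97.1 and 99.9 in all 8, and Neurog1 has points at 37 °C only, from 2.30 to 8.75.

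Distal peaks were those in the gene body or the 50 kb on either side that came within 1 kb of no annotated start of any gene. The Nes locus had 11, 15, 12 and 11 at 37 °C and 8, 9, 6 and 9 at 39 °C, a difference of -4.25 without overlap (exact permutation p = 0.0286, adjusted p = 0.131 over all coding genes). The Hes5 locus had 5, 5, 4 and 6 at 37 °C and 1, 1, 2 and 1 at 39 °C, a difference of -3.75, again without overlap (exact permutation p = 0.0286, adjusted p = 0.131). These 2 of 9 members stood against 21.7% of all coding genes with fewer distal peaks at 39 °C without overlap, and 0.191% with more. When each list was cut to its 54845 highest peaks, the length of the shortest, both differences became 0.

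The other loci overlapped between temperatures. Hes1 had 10, 11, 7 and 10 distal peaks at 37 °C and 8, 9, 7 and 8 at 39 °C (exact permutation p = 0.257). Neurog2 had 3, 1, 2 and 3 against 2, 1, 1 and 1 (exact permutation p = 0.257), and Neurog1, Olig2 and Olig3 had 1 to 3 per library at either temperature. Neurod1 had 0 in every library. Hey1 had 0, 0, 2 and 0 at 37 °C and 1 in each library at 39 °C. All but 1 of these were the separate peak towards the end of the gene described above, and the other lay 34.7 kb upstream in replicate 3 at 37 °C. Peak number depends on how the caller splits a wide region, so regions merged over all libraries were compared next.

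**Figure D2:**
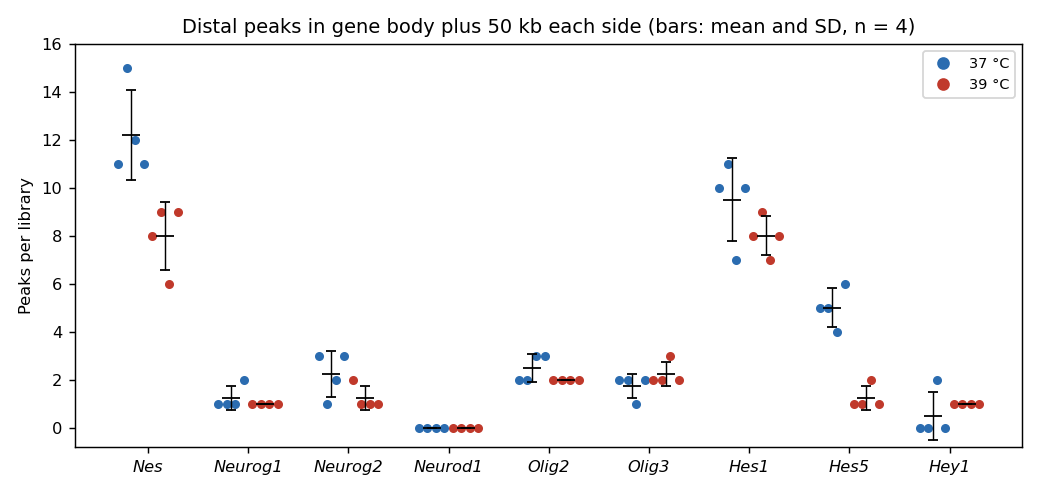
Number of distal peaks in the gene body and 50 kb on either side (vertical axis, peaks per library) for the 9 genes, with 1 point per library and bars for mean ± SD (n = 4). The groups separate at Nes and Hes5, where every library at 39 °C has fewer peaks than every library at 37 °C.

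Merging the peaks gave 60 regions in the 9 loci, and 53 had peaks from 2 or more libraries. The set of 53 held 34 distal regions, 6 promoter regions of members and 13 promoter regions of neighbouring genes. Of the 34 distal regions, 16 were called in all 8 libraries, against 45.7% of the 62699 distal regions of the genome. They included 6 at Hes1, 4 at Nes, 2 at Olig2 and 1 each at Neurog1, Neurog2, Olig3 and Hes5. Of the 34, 15 were called in fewer libraries at 39 °C and 2 in more, and 1 was called in 1 library at each temperature. Over the genome 42.9% of distal regions were called in fewer libraries at 39 °C and 6.88% in more.

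Summit sequences of 201 bases (GRCm38.p6, plus strand, same capitals) are shown for 4 of these regions. The first 3 were distal regions called in all 8 libraries. The Nes one, which fell, had the largest difference on the shared scale of the 4 such regions at its locus. Those at Neurog2, which fell, and at Olig3, which rose, were the only such regions of their loci. The Hes5 one was called only at 37 °C. All 4 were chosen after the values were seen.
Nes, 12.3 kb downstream, chr3:87983318-87983518, plus strand: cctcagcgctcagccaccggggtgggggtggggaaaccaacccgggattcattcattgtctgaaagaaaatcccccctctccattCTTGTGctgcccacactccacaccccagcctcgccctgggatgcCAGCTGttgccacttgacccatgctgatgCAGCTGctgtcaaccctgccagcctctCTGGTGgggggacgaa
Neurog2, 7.63 kb upstream, chr3:127625400-127625600, plus strand: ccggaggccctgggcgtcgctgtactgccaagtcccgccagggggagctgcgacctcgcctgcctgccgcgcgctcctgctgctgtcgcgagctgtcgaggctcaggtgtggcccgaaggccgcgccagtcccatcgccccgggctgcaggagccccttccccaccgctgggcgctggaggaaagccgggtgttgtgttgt
Olig3, 22.9 kb upstream, chr10:19333503-19333703, plus strand: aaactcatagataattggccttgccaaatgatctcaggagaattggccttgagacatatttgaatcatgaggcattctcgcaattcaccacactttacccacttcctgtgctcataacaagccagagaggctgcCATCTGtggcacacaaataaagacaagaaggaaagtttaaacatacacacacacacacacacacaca
Hes5, 14.3 kb upstream, chr4:154946524-154946724, plus strand: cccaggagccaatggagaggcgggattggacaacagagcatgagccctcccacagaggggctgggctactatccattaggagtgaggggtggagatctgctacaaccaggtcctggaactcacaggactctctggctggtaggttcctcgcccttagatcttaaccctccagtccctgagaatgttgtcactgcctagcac

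The Nes window held 2 CAGCTG E-boxes and 2 N-boxes, the Olig3 window 1 CAGATG E-box, and the others none of the motifs. Over the 34 distal regions, 301-base windows around the summits held CAGATG in 29.4% (26.4% of all 62699 distal regions), CAGCTG in 17.6% (21.3%), CACNAG in 70.6% (53.2%) and the RBPJ site in 2.94% (7.42%). CACGTG and CACGCG were found in 0 of 34 windows (4.33% and 1.36% of all). The 1 window of the 34 with an RBPJ site was that of the Hes5 region shown, and the site lies outside the printed bases. Also outside them, the 301-base windows held 1 N-box at the Neurog2 region and 1 CAGATG at the Nes region.

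Called in all 4 libraries at 37 °C and 0 of 4 at 39 °C were 4 of the 34 distal regions, beside a background of 6.24%. The reverse was seen in 0 of 34 (background 0.407%). They were divided between Nes and Hes5. At Nes, 1 lay 36.4 kb upstream in an intron of Isg20l2 (chr3:87934068-87935051), at the percentiles 33.7, 21.4, 17.8 and 30.5. The other lay 19.9 kb downstream in an intron of Bcan (chr3:87990059-87991733), which encodes the brain proteoglycan brevican, at 38.4, 37.3, 31.7 and 40.1. At Hes5, 1 lay 14.3 kb upstream between genes (chr4:154946320-154946930), at 22.7, 17.5, 8.34 and 26.6. The other lay 25.3 kb downstream in an exon of Plch2 (chr4:154985696-154986560), at 26.7, 16.1, 25.5 and 34.0. All 16 values were in the lower part of the lists, from 8.34 to 40.1. No region passed Fisher's exact test after adjustment over all 84777 consensus regions (smallest adjusted p = 0.450; 5386 had an unadjusted p of 0.0286).

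Further regions were called in 3 or 4 libraries at 37 °C and at most 1 at 39 °C. At Nes they lay 39.9 and 46.0 kb downstream, each in 3 libraries at 37 °C and 0 at 39 °C. At Hes5 they lay 20.8 kb downstream (3 and 0) and 22.0 kb downstream (4 and 1), at Neurog2 6.93 kb downstream (3 and 0) and at Hes1 16.8 kb upstream (3 and 0). Percentiles of these 6 at 37 °C were 0.484 to 35.8. Of the neighbours' promoters in these loci, that of Olig1, 44.8 kb from Olig2 (chr16:91269874-91270792), was called in 4 and 0 libraries at the percentiles 12.4, 4.15, 26.8 and 25.4. Near Nes, a region over an exon of Rrnad1 and within 1 kb of a start of that gene (chr3:87926205-87927203) was called in 3 and 0. Another Rrnad1 start lay in the region of the Isg20l2 promoter (chr3:87929099-87931340), called in 4 and 4. The 2 regions in more libraries at 39 °C, 13.7 kb downstream of Olig3 and 45.3 kb downstream of Hes1, were each called in 3 and 4.

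Cutting every list to equal length changed this picture. Of the distal regions above, a single one was then called in 4 libraries at 37 °C and 0 at 39 °C, 35.6 kb downstream of Nes (chr3:88006046-88007005). With all peaks, that region had been called in 4 and 2, at the percentiles 46.6, 46.7, 26.8 and 51.1 against 0.148 and 3.57. The region downstream of Olig3 was called in 1 library at 37 °C and 4 at 39 °C, and the one 45.3 kb downstream of Hes1 in 0 and 3. The 4 regions restricted to 37 °C with all peaks no longer had that pattern, although the one 19.9 kb downstream of Nes was still called in 3 and 0.

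**Figure D3:**
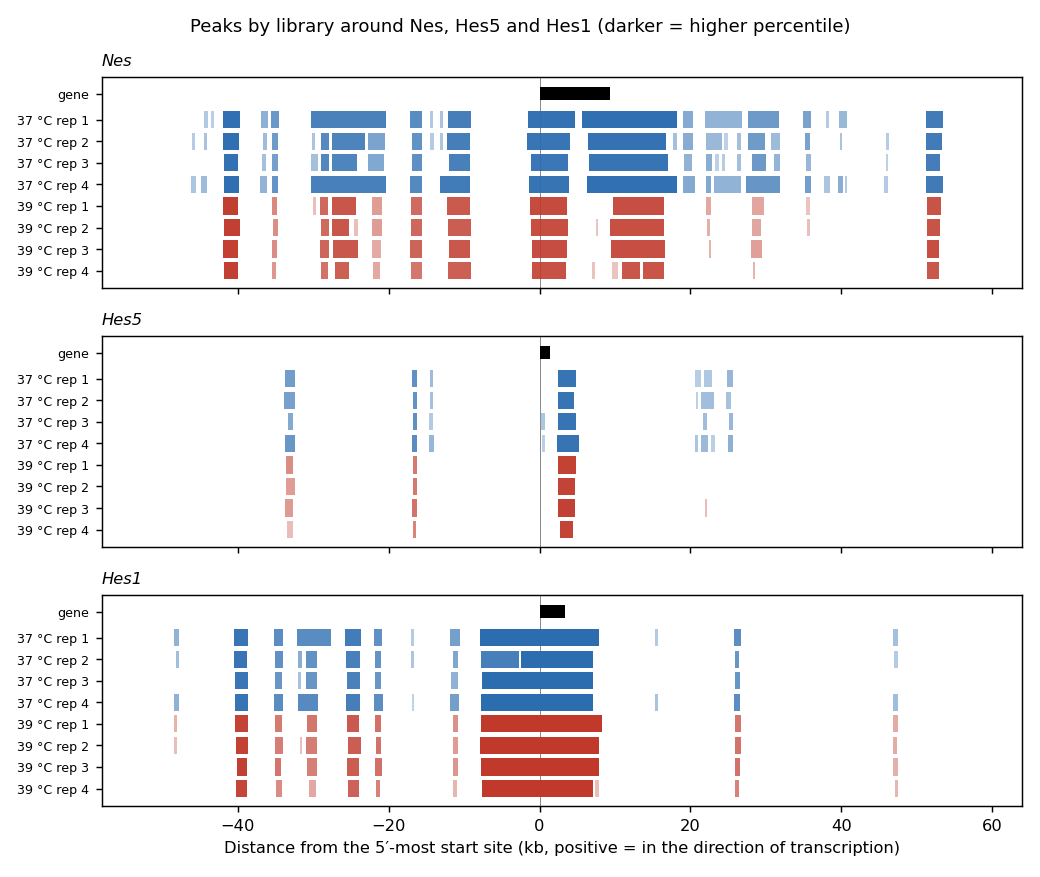
Peaks of each library (rows) around Nes, Hes5 and Hes1 as distance from the 5′-most start in kb, with the gene as a black bar and darker colour for a higher percentile. Pale bars present in the blue rows only, at 37 °C, flank Nes and Hes5, and the wide Hes1 promoter peak spans all 8 rows.

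Among the 16 distal regions called everywhere, ranks within the lists were lower at 39 °C without overlap in 10, higher in 0 and overlapping in 6. The background was 53.3% lower and 0.918% higher, with a median difference of -9.06 points (-10.1 over the 16). Among shared regions 3 were lower, 6 higher and 7 overlapped, with a background of 21.8% lower, 22.8% higher and a median of -0.184 points (-1.23 over the 16). Each region without overlap has an exact permutation p of 0.0286 (adjusted p = 0.0527 within the lists and 0.0640 among shared regions). Peaks were narrower at 39 °C without overlap in 4 of the 16 and wider in 0 (background 21.9% and 1.01%).

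Among the 16, the largest fall in width was at Nes. A region that begins in the last exon of Nes and runs into the intergenic space before Bcan (chr3:87976748-87989321, summit 12.3 kb from the Nes start) was covered over 12530, 10794, 10518 and 11965 bp at 37 °C and over 6794, 7434, 7248 and 6334 bp at 39 °C. Its percentiles were 96.9, 94.5, 92.2 and 96.1 at 37 °C and 84.9, 83.7, 85.0 and 79.8 at 39 °C. It was lower at 39 °C on both scales, by -11.6 points within the lists and by -13.9 among shared regions. The neighbouring region at a Bcan start (chr3:87998430-88002910, 28.4 kb downstream) fell from 56.0 ± 2.37 to 19.9 ± 6.23 (SD, n = 4 each), by -19.2 points among shared regions (exact permutation p = 0.0286). The accessible DNA from the Nes promoter to Bcan was thus lower in rank at 39 °C at each of 3 regions called in all libraries. Upstream the locus differed from this. The region 35.1 kb upstream fell from 55.6 to 37.9 within the lists but overlapped among shared regions (-4.61 points, exact permutation p = 0.0857). That 16.7 kb upstream was higher at 39 °C among shared regions, by 9.24 points, while overlapping within the lists. The highest region of the locus, over starts of Isg20l2 and Rrnad1 40.8 kb upstream, overlapped on both scales (96.1 and 95.3).

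At Neurog2 the region 7.63 kb upstream (chr3:127625337-127626369) had percentiles of 56.7, 55.7, 57.8 and 59.4 at 37 °C and 34.8, 37.6, 32.0 and 24.8 at 39 °C. It was lower in every library at 39 °C on both scales, by -25.1 points within the lists and -12.2 among shared regions. It thus fell further than the Neurog2 promoter itself. At Neurog1 the region 27.5 kb upstream (chr13:56279348-56280201) fell from 52.6 ± 1.98 to 34.8 ± 7.74 within the lists (SD, n = 4 each), and the promoter of Cxcl14, a chemokine gene 44.2 kb upstream, from 59.7 ± 2.46 to 40.4 ± 4.87. Both overlapped among shared regions (-3.20 and -7.59 points, exact permutation p = 0.343 and 0.0571).

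Neither Olig2 nor Olig3 had a promoter peak, but distal regions were called in all 8 libraries at both. At Olig3, 22.9 kb upstream (chr10:19332773-19334002), the percentiles were 62.4, 54.5, 51.3 and 62.9 at 37 °C and 58.8, 60.8, 59.8 and 53.0 at 39 °C, which overlapped within the lists. Among shared regions it was higher at 39 °C in every library, by 16.4 points, the largest rise of the 16. At Olig2 the region 13.5 kb downstream (chr16:91238133-91239699) stood at 83.2, 81.5, 80.6 and 85.1 and at 80.6, 81.8, 83.3 and 75.8, again overlapping within the lists, and was higher at 39 °C among shared regions by 4.25 points. The region 22.5 kb upstream of Olig2 overlapped on both scales.

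Hes1 held regions that moved in both directions. The region 39.5 kb upstream (chr16:30023869-30025738) had the highest rank of its distal regions. It stood at 91.2 ± 1.26 and, at 39 °C, at 93.0 ± 1.84 (SD, n = 4 per temperature) with overlap, and was higher at 39 °C among shared regions by 6.16 points. So were those 21.3 kb upstream (6.99 points) and 24.3 kb downstream (3.64 points), although within the lists both were lower, by -6.38 and -8.61 points. The region 34.7 kb upstream was lower on both scales (-15.7 and -6.07 points). That 30.1 kb upstream fell by 22.0 points within the lists, from 65.6 ± 5.40 to 43.6 ± 16.5, where replicate 4 at 39 °C alone stood at 19.1, and overlapped among shared regions (exact permutation p = 0.0571). At Hes5 the distal region present in every library, 16.5 kb upstream (chr4:154943975-154944746), fell from 65.1 ± 2.74 to 52.6 ± 5.38 within the lists and overlapped among shared regions (-1.73 points, exact permutation p = 0.629). The Tnfrsf14 promoter 32.8 kb upstream of Hes5 likewise fell within the lists, from 49.6 to 25.3, and overlapped among shared regions. The regions 16.7 kb upstream and 35.6 kb downstream of Nes, 22.5 kb upstream of Olig2, 13.7 kb downstream of Olig3 and 39.5 kb upstream, 21.3 kb upstream and 45.3 kb downstream of Hes1 were named after their values were seen.

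**Figure D4:**
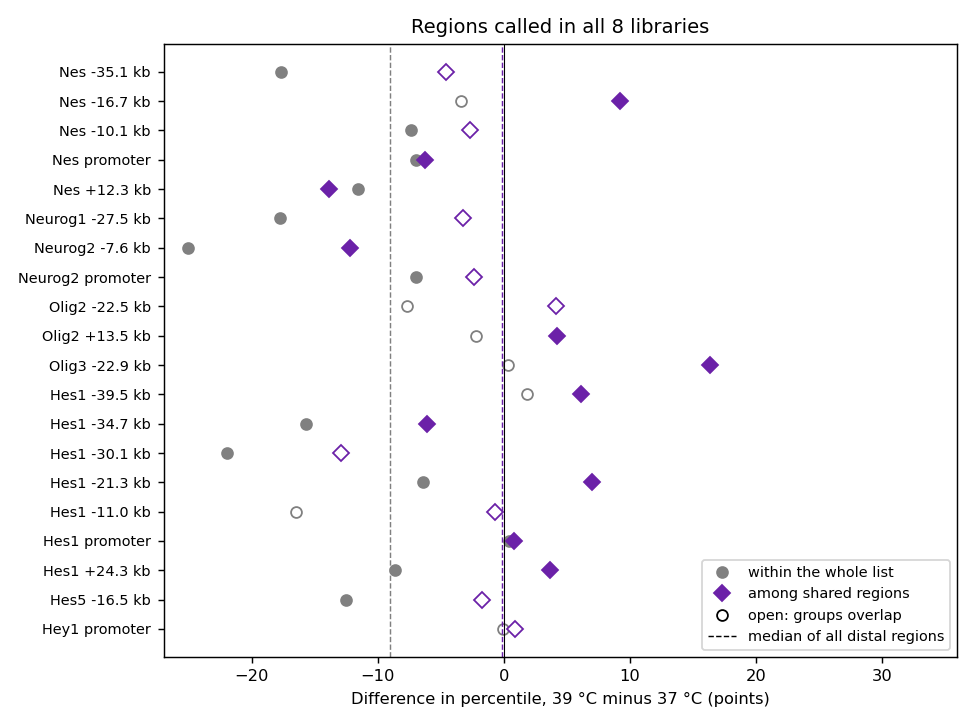
Difference in percentile, 39 °C minus 37 °C in points, for the 4 member promoters and 16 distal regions called in all 8 libraries, within the whole list (grey circles) and among shared regions (purple diamonds), with open symbols where the groups overlap and dashed lines at the medians of all distal regions (-9.06 and -0.184). Points on the shared scale lie on both sides of 0, from -13.9 at Nes to 16.4 at Olig3.

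**Figure D5:**
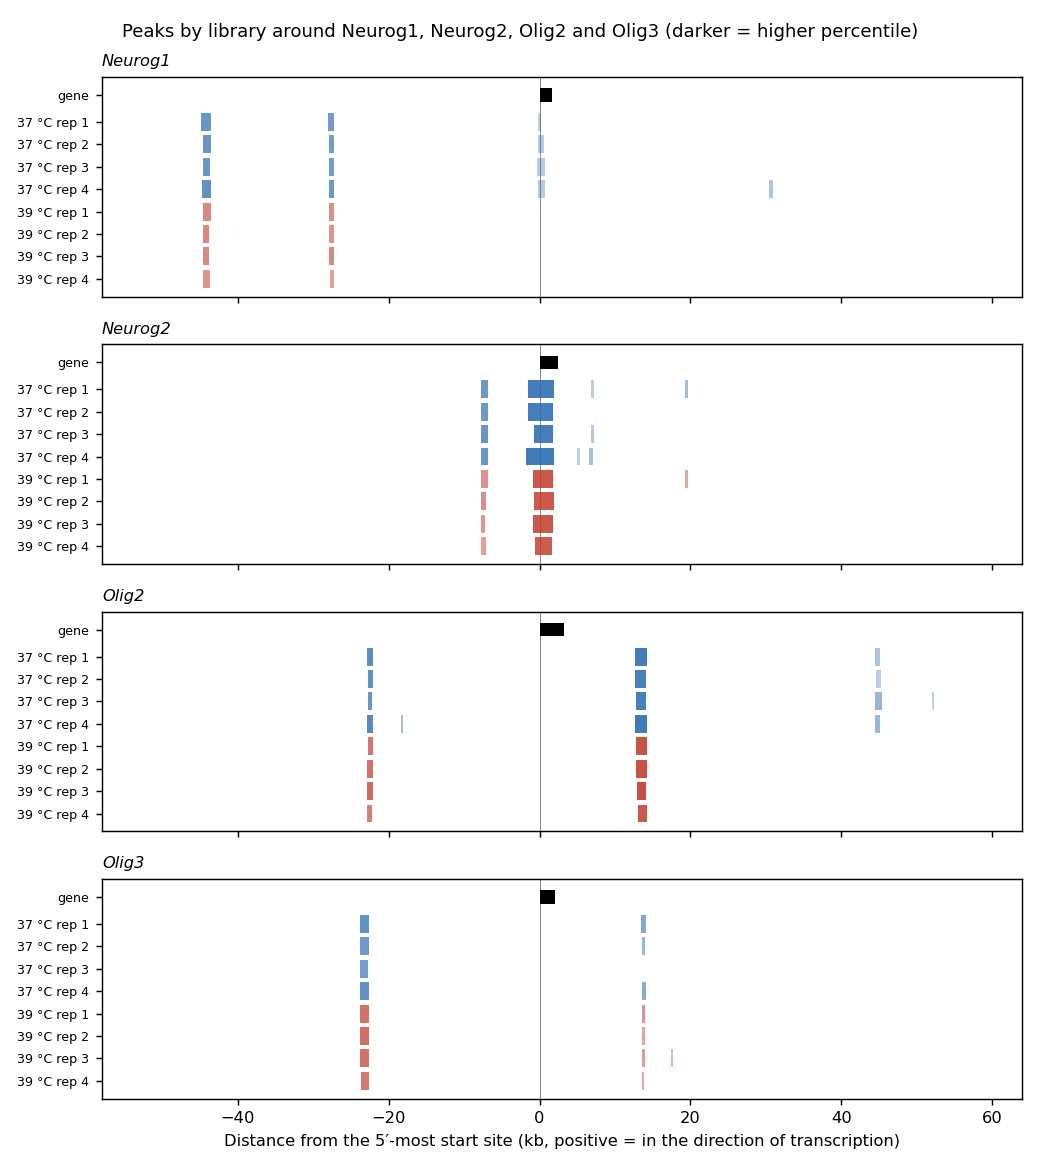
Peaks of each library (rows) around Neurog1, Neurog2, Olig2 and Olig3 as distance from the start in kb, with the gene as a black bar and darker colour for a higher percentile. Neurog2 alone has a peak over its start in all 8 rows, and the peak at the Neurog1 start is pale and present at 37 °C only.

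The 37 related genes of the pathway were read in the same way. A promoter peak was present in every library in 26, in none in 6 and in fewer libraries at 39 °C in 5, with 0 in more (7.97% and 0.470% of all coding genes). Within the lists 11 were lower at 39 °C without overlap and 0 higher, and among shared regions 3 were lower and 3 higher, with a median difference of 0.181 points. The background was 52.4% lower and 0.510% higher within the lists and 13.9% and 8.44% among shared regions, over genes with a promoter peak in every library, and 59.9% of all coding genes had such a peak and 31.3% none. The 11 of 26 genes lower within the lists were thus no larger a share than in all genes. All 5 genes for Notch ligands had a promoter peak in every library. Within the lists Dll3 (-20.6 points), Dll4 (-10.8) and Dll1 (-10.6) were lower, and none of these 3 stood apart among shared regions. Jag2 was higher there, by 9.43 points. All 4 receptor genes were open in every library as well. Notch3 was lower within the lists (-6.83 points) and Notch1 was higher among shared regions (3.81 points). Of the 6 nuclear effectors and modulators, all open in every library, Maml2, a coactivator of the receptor's intracellular domain, was lower on both scales (-7.29 and -4.87 points).

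Other repressors of the Hes and Hey families were open in every library in 3 of 6. Hes2 was called in 4 libraries at 37 °C and 2 at 39 °C, Hes7 in 4 and 3, and Heyl in 0. The Hes7 peak was 5166 to 6406 bp wide, with its summit 2157 to 2242 bp after the nearest start. It thus reached the 1 kb window only with its flank. Within the lists Hes3 (-18.8 points), Hes6 (-2.85) and Hey2 (-0.920) were lower, and Hes6 was also lower among shared regions (-2.05 points). Of the other proneural and neural bHLH genes, 1 of 9 was open in every library and 5 in none, beside 59.9% and 31.3% of all coding genes. Those without a promoter peak were Atoh1, Neurod4, Neurod6, Nhlh1 and Nhlh2. Olig1 and Bhlhe22 were called in 4 libraries at 37 °C and 0 at 39 °C (1.46% of all coding genes), Neurog3 in 1 and 0, and Neurod2 was open in every library and lower within the lists at 39 °C (-12.8 points). All 3 genes for E proteins, the dimer partners of proneural factors, and all 4 for Id proteins, which bind E proteins and block them, were open in every library. Tcf3 was higher among shared regions by 3.54 points. Id1 was lower on both scales (-1.81 and -1.58 points), and Id2 within the lists (-0.909). Jag2, Notch1, Tcf3 and the genes without a promoter peak or with 1 library fewer at 39 °C were named after their values were seen.

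No comparison passed an adjusted p of 0.05. The exact permutation test gave 6955 genes with an unadjusted p under 0.05 for promoter percentile, 3093 for promoter width and 4800 for distal peak number, and 15552 and 6559 distal regions for percentile and width. The smallest adjusted p was 0.0540, 0.121, 0.131, 0.0527 and 0.125 for these measures, and Fisher's exact test of promoter presence gave 324 genes with an unadjusted p under 0.05 and a smallest adjusted p of 1.00.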

How the data were processed

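ATAC-seq peak lists of 8 SN4741 libraries were analysed. The submitters' processing notes name Bowtie2 2.4.1, SAMtools 1.15.1, Picard 2.26.11, MACS3 3.0.0a7 and bedtools 2.30.0 and the build mm10. Per the file headers, peaks were called separately for each library at a q-value of 0.05, without a control. The deposited lists give the −log10 of the p-value and q-value, the fold enrichment (a ratio) and the pileup signal of each peak, and the authors did not scale the signal for depth. The study's methods describe removing peaks in artefact-prone regions, but the numbers in the peak names had no gap in any of the 8 lists, so such peaks may still be counted in list lengths and percentiles. The lists hold no read counts, so the count test that the study used was not run. Depth, the fragments kept by the caller, was 49.8 to 169 M per library and limits which weak peaks could be called.

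Peaks were merged at 1 bp overlap, and regions called in at least 2 libraries formed the consensus set. Promoters were the 1 kb on either side of any start in GENCODE M21, and loci were gene bodies plus 50 kb. Positions count from 1. Values were compared by the exact permutation test over 70 assignments of the libraries, two-sided, or by Fisher's exact test, and p-values were adjusted over all genes or regions after Benjamini and Hochberg (Python 3.11.15, numpy 2.4.6, scipy 1.17.1, pysam 0.24.0). The merging and tests were checked on simulated data. Regions were named for presence in 3 or 4 libraries of one temperature and at most 1 of the other, for the highest rank of their locus, or for percentiles that did not overlap within the lists (at most 3 per locus). Related genes were named for promoter presence that differed by 2 or more libraries or for such percentiles (at most 4 per role). The report says which others were named after their values were seen. The members, the lists of related and marker genes and these rules were chosen with earlier results of these data known. From the list of related genes, 1 gene is not reported here. Alternatives were a stricter −log10 q, equal list lengths, other promoter and locus sizes, ranks among shared regions, libraries of similar depth, each library left out, and the replicate number as a block.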

Additional observations from a re-analysis of the deposited data

Results flagged for a closer look

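In 9 of 34 groups of 4 libraries, 1 library stood far from the other 3 by Dixon's criterion, where chance gives about 1.70. Distal peak number was flagged 6 times, on small whole numbers where a single peak is enough: Neurog1 in replicate 4 at 37 °C (2 peaks, 1 in the others), Neurog2 in replicate 1 at 39 °C (2, against 1), Olig3 in replicate 3 at 37 °C (1, against 2) and in replicate 3 at 39 °C (3, against 2), Hes5 in replicate 3 at 39 °C (2, against 1) and Hey1 in replicate 3 at 37 °C (2, against 0). Promoter peak width was flagged 3 times. The Hes1 peak in replicate 2 at 37 °C was 9499 bp wide, where the next was 14747 bp, the Hey1 peak in replicate 3 at 37 °C was 2325 bp wide, where the next was 4231 bp, and the Neurog2 peak in replicate 4 at 39 °C was 2381 bp wide, where the next was 2561 bp. At Hes1 and Hey1 a second peak lay in the same region in the same library. Together the peaks covered 14509 of 16097 bp of the Hes1 region and 3213 of 4246 bp of the Hey1 region.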

How the results depend on the processing

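Of the counts recomputed under the alternatives, 235 stayed within 1.5 times the reported count and 33 did not. Of the values of single genes, 233 kept their direction and their side of the threshold, 5 lost the separation of the groups, 9 gained it and 7 changed sign. Where a count moved, the cause was not tested, except that alternatives with smaller or larger loci hold fewer or more regions by construction.

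With only peaks of −log10 q of at least 5, 0 members had a promoter peak in every library at 37 °C and none at 39 °C. With equal numbers of peaks that count was also 0, and 5 members had no promoter peak in any library. There were then 0 members with fewer distal peaks at 39 °C (0 also for the differences at Nes and Hes5), 20 distal consensus regions, 1 restricted to 37 °C, and 4 lower and 5 higher in percentile at 39 °C. Distal peak number changed sign at Neurog2 (0.250) and Hes1 (0.500), and promoter percentile at Hey1 (0.707). Among shared regions 1 member promoter was lower at 39 °C, Hey1 changed sign (0.880), and 3 distal regions were lower and 6 higher. With promoters assigned by summit, which leaves out Neurog2, 1 member was lower in percentile.

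With 10 kb on either side of the gene, 0 members had fewer distal peaks at 39 °C, and of 6 distal regions 4 were called everywhere, 1 was restricted to 37 °C, 3 were lower in percentile and 2 in width. With 100 kb there were 76 distal regions, 37 called everywhere, 8 restricted to 37 °C, 23 lower in percentile, 9 narrower and 1 wider. With the promoters of other genes counted as distal, 8 regions were narrower. In libraries with fewer than 100 M fragments, 1 member promoter (Hes1, by 3443 bp) and 2 distal regions were wider at 39 °C.

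Leaving out 1 library at a time gave 0 to 3 members with a narrower promoter peak, 0 to 1 with more and 2 to 3 with fewer distal peaks, 4 to 7 distal regions restricted to 37 °C, 4 to 7 narrower and 10 to 11 lower in percentile, and -0.253 to 0.072 points for the percentile of Hey1, whose sign changed without replicate 3 at 37 °C (0.0604) or replicates 2 or 4 at 39 °C (0.0720 and 0.0323). The upper ends for narrower promoters, restricted regions and narrower regions (3, 7 and 7) came without replicate 3 at 37 °C.

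The replicate numbers did not pair the libraries: deviations of same-numbered libraries over 13145 promoters correlated at 0.288, -0.0592, -0.201 and -0.514. With the replicate number as a block, 1 member promoter was narrower at 39 °C (Nes, by -726 bp) and 7 distal regions were, and the other counts stayed within 1.5 times. The exact sign-flip permutation test behind the block cannot go below p = 0.125. Depth limits the absence of weak peaks: a region under the caller's threshold in the shallower libraries is listed as absent.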
